A study of Mus musculus with 6 samples.

Results

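Pemafibrate given with the NASH diet was compared with the NASH diet alone in mouse heart. The comparison took the 4 heart libraries of the N and NP groups, 2 of each, out of 6 libraries in all, and these 4 were chosen by the diet and dose in their labels. Male C57BL/6J mice made up each group. C mice lived on chow. N mice received a NASH diet, rich in sucrose, cholesterol and fat, to which bile acid was added. NP mice received this diet too, and also pemafibrate, a selective modulator of the nuclear receptor PPARα, at 0.1 mg/kg. The labels state 3 weeks of diet and the study's methods 8 weeks. The labels call each sample heart, while the extraction protocol in them names liver. Polyadenylated RNA was sequenced, and the values are FPKM, which are scaled to transcript length and library size. The libraries were paired by the kind of name they were deposited under, which is also their replicate number, so that NP1 was set against N1 and NP2 against N2. Nothing in the labels states that the libraries come from separate animals, so the *P* values below measure the spread between these samples only.

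Each file lists 24346 genes, and 12923 of them had a mean of at least 0.5 FPKM over the 6 libraries and were tested. Some genes near 0 in C and NP, such as *Gm12185*, passed this filter only through the N libraries. For such genes, being lower in NP was partly built into being tested. The depth was estimated at 8700000 and 8760000 reads for N1 and N2 and at 8210000 and 8450000 for NP1 and NP2, which is close to equal. C1 and C2 were deeper, at 26100000 and 21400000 reads. For a transcript of 2000 bases, 1 read corresponds to 0.0634 to 0.0676 FPKM in the N and NP libraries. Heart muscle markers were high in each of these 4 libraries. The atrial and ventricular muscle gene *Actc1*, cardiac α-actin, had an FPKM of 9433 and 9455 in N and 9462 and 11324 in NP. The α-myosin heavy chain gene *Myh6* had 5671 and 3841 in N and 6856 and 4814 in NP. The liver gene *Alb*, which encodes albumin, had 0.555 and 1.25 in N and 2.04 and 1.72 in NP. The labelled tissue, heart, fits these values.

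Interferons act on cells through receptors that switch on transcription factors by way of JAK kinases. Their target genes carry the interferon-stimulated response element (ISRE), which a complex with IRF9 binds, or gamma-activated sites (GAS), which answer to interferon-γ. The genes induced include antiviral effectors, the MHC class I and II presentation machinery, and 2 families of GTPases that act on the membranes around intracellular pathogens, the immunity-related GTPases (IRG) and the guanylate-binding proteins (GBP). PPARα is a receptor for fatty acids and fibrate drugs. In heart muscle it drives genes of fatty acid uptake, storage and oxidation, and ligand-bound PPARα is also known to dampen inflammatory transcription in several tissues.

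The hearts of the NP group had less mRNA of interferon-response and antigen-presentation genes than those of the N group, and the size of this difference was similar in the 2 pairs. In limma's test, 179 of the 12923 genes (1.39%) were lower in the NP group at an adjusted *P* value under 0.05, and 0 (0%) were higher. Before adjustment, 754 genes were lower and 285 higher at a *P* value under 0.05, and the smallest adjusted *P* value among the higher genes was 0.0632. The rule without a test, a difference of at least 1.5-fold with the same sign in both pairs on log2(FPKM + 1), gave 354 lower genes (2.74%) and 24 higher genes (0.186%). Each of the 179 genes was among the 354. In bulk tissue, fewer cells of a type and less RNA per cell cannot be told apart, and this holds for each immune gene described below.

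Those counts depended on which libraries the spread was taken from. With the pairs as a replicate block for the N and NP libraries, 289 genes were lower and 12 higher, and with the replicate number as a block over the 6 libraries 196 were lower and 4 higher. With only the N and NP libraries in the model 78 were lower and 0 higher, or 110 and 0 with the replicate block. Without C replicate 1 the number lower was 80, and without C replicate 2 it was 78. Leaving out N replicate 1 gave 106 lower and 2 higher, and leaving out N replicate 2 gave 97 lower and 2 higher. Leaving out NP replicate 1 gave 73 lower and 10 higher, and leaving out NP replicate 2 gave 65 lower and 2 higher. The number higher was 1 with a pseudocount of 0.1, 1 with the filter taken over the N and NP libraries, 1 with no trend in the moderation and 6 with no filter. At 2-fold in both pairs, 190 genes were lower and 4 higher. By the pair rule the higher genes numbered 111 with a pseudocount of 0.1 and 15 at a mean of at least 2 FPKM. In each of these settings, and under each scaling tried, the 179 genes had a negative difference wherever they were tested, which was 143 of them at a mean of at least 2 FPKM and all 179 in the other settings.

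**Figure D1:**
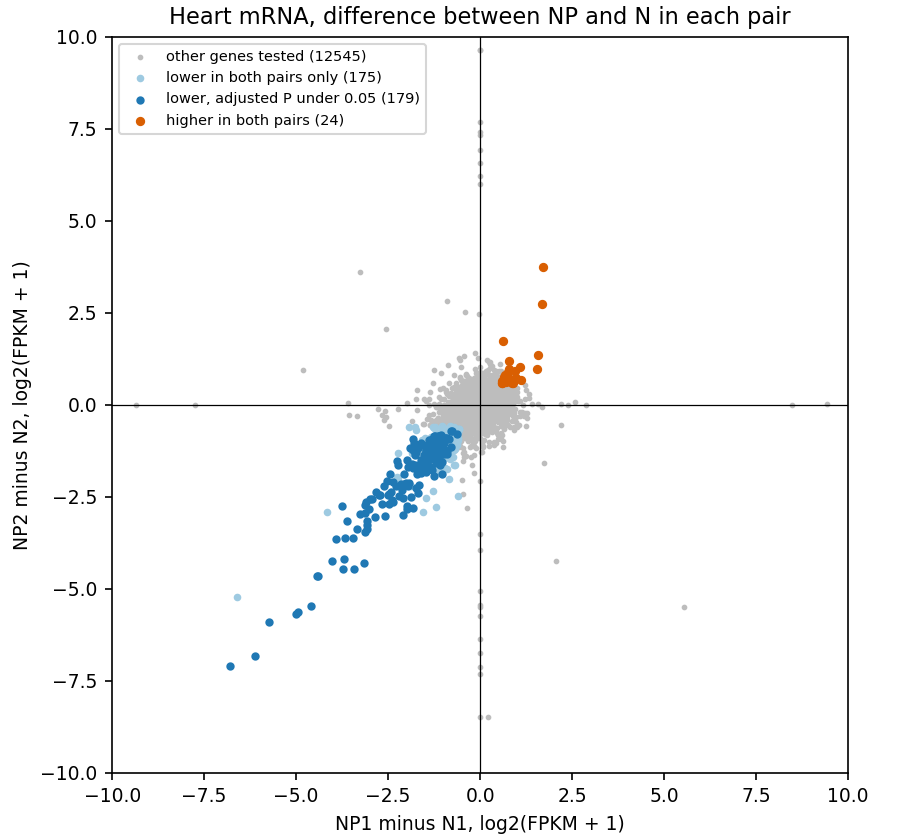
Difference between NP and N on log2(FPKM + 1) in pair 1 (x axis) and pair 2 (y axis), with 1 point a gene for the 12923 genes tested, of which 2 lie beyond the axes. The 179 genes lower by adjusted *P* value (dark blue) run along the diagonal in the lower left, and the 24 genes higher in both pairs (orange) sit nearer the origin.

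The plot of pair 1 against pair 2 shows a long arm of lowered genes and a short one of raised genes. Across the 12923 genes, which are not independent replicates, Pearson's r between the differences of the pairs was 0.439 and Spearman's rho 0.296, and Pearson's r was 0.198 without the 179 genes. The sign was negative in both pairs for 3377 genes, positive in both for 4341 and opposite for 5108. Both NP libraries were below both N libraries in 1898 genes and above both in 1958, so such separation alone was common. Over all genes tested the median log2 difference was 0.03. Among the 179 genes the median was -1.53, from -0.72 to -6.94, and the pair medians were -1.54 and -1.56. A difference beyond -2 was found in 62 of them, one between -2 and -1 in 104 and a smaller one in 13. Their median N minus C difference was 1.42 and their median NP minus C difference was -0.13. N1 and N2 exceeded C1 and C2 in all 179, and NP1 and NP2 were under C1 and C2 in 74. These comparisons share libraries (NP minus N and N minus C share the N libraries), so the values are given side by side only. The 179 were picked as lower in NP than in N, so high N values were partly built in. How many of all genes tested had such an order against C was not counted. By chromosome the share of tested genes that were lowered was highest on chromosome 17, which carries the MHC, with 21 of 619 (3.39%). Chromosome 15 followed with 12 of 487 (2.46%), chromosome 19 with 10 of 445 (2.25%) and chromosome 11, which carries many IRG and chemokine genes, with 22 of 1046 (2.1%).

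Promoters of 8 lowered genes are shown so that the known elements for interferon factors can be read in them. The GTPase genes were picked because their promoters hold an ISRE core, and *B2m* because it was the most abundant lowered gene, so these 8 do not stand for the rest. Each line is the 250 bases before a start of the gene in RefSeq on build GRCm38.p6, 5′ to 3′ on the gene's strand. For *Gbp3* the whole span of the gene begins at 142560016, inside the stretch shown, and the distances given count from the end of that stretch. Capitals mark matches to the ISRE core, GAAANNGAA, or to the GAS, TTCNNNGAA, searched on both strands. The positions are chr11:48871421-48871670, minus strand for *Irgm1*, chr11:48927183-48927432, minus strand for *Gm12185*, chr11:49064213-49064462, minus strand for *Tgtp2*, chr11:58183593-58183842, plus strand for *Gm12250*, chr11:58199306-58199555, plus strand for *Igtp*, chr11:58214727-58214976, plus strand for *Irgm2*, chr3:142559794-142560043, plus strand for *Gbp3* (the upstream of its 2 starts), and chr2:122147437-122147686, plus strand for *B2m*.
Igtp: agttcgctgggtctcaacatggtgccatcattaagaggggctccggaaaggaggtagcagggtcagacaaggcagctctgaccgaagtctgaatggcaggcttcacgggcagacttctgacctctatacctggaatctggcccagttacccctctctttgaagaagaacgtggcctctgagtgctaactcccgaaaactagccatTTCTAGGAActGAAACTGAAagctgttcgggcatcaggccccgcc
Irgm2: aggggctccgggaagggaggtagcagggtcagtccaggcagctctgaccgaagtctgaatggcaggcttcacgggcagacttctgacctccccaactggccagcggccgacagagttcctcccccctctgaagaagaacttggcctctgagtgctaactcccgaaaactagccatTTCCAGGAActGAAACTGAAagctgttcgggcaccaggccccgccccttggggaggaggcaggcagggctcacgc
Gm12185: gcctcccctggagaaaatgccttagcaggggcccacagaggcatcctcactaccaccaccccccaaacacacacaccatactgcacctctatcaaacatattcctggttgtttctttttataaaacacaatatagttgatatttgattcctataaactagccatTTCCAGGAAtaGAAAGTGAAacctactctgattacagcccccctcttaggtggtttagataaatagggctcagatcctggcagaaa
Tgtp2: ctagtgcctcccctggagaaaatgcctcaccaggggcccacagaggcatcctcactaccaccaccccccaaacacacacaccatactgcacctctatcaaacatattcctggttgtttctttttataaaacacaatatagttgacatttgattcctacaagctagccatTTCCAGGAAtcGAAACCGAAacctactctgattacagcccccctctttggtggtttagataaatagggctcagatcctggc
Gm12250: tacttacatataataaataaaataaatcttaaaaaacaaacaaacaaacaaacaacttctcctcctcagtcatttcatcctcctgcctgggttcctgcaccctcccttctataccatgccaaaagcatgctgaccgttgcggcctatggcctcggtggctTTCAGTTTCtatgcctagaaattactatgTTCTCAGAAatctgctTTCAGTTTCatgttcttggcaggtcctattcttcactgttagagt
Irgm1: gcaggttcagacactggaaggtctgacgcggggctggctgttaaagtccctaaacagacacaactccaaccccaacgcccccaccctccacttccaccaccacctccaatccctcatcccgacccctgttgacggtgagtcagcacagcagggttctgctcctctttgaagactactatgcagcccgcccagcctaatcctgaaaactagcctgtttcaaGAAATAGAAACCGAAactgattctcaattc
Gbp3: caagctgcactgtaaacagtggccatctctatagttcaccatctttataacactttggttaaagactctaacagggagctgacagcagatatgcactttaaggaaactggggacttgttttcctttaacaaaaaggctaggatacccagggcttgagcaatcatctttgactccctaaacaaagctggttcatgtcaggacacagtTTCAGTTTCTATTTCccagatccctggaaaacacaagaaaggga
B2m: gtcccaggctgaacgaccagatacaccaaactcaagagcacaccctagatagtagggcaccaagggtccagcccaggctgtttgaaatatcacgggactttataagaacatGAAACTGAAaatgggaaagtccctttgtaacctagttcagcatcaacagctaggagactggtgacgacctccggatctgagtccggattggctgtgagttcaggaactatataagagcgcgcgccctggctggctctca
In *Igtp*, *Irgm2*, *Gm12185* and *Tgtp2* an ISRE core begins 11 bases after the first base of a GAS. In *Gm12250* that spacing is 16 bases, and another ISRE core lies 90 bases before the start. *Irgm1* has overlapping ISRE cores 30 and 24 bases before the start, and *Gbp3* has them 44 and 38 bases before it. The *B2m* promoter has 1 ISRE core, 139 bases before the start. Among the lowered genes, 130 of 179 had a promoter in the table, and 39 of them (30.0%) held an ISRE core and 23 (17.7%) a GAS. The shares were 7.47% and 7.21% in the 9773 tested genes with a promoter, and 7.13% and 7.02% in all 32841 promoters of this length. Of the 12 most lowered genes 7 had a promoter, and 5 of them held an ISRE core and 4 a GAS, while those of *Vmn1r58* and *Ccl8* held neither. Among the lists, an ISRE core was held by 10 of 11 promoters of interferon-inducible GTPases, 11 of 22 of antiviral genes, 5 of 16 of chemokines, 4 of 13 of macrophage markers, 4 of 17 of MHC class I genes and 1 of 10 of MHC class II genes. A GAS was held by 7, 4, 1, 1, 2 and 1 of them in the same order. Of the 24 genes higher in both pairs, 19 had a promoter, and 0 held either motif. A match is a run of letters, and binding was not measured.

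The 12 most lowered genes were mainly interferon-inducible GTPases. They were *F830016B08Rik*, *Gm4841*, *Igtp*, *Gbp10*, *Gm12185*, *Gm12250*, *Irgm2*, *Iigp1*, *Vmn1r58*, *Irgm1*, *Ccl8* and *Gbp6*, in order of their log2 difference, which ran from -6.94 to -3.94. In all 12 both N libraries lay far above the 4 C and NP libraries. Genes of these families share stretches of sequence with near-identical copies, so their reads can be assigned to the wrong copy and single values are uncertain.

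*F830016B08Rik*, a predicted interferon-inducible GTPase on chromosome 18, had an FPKM of 6.26 and 5.98 in C, 575 and 635 in N and 4.22 and 3.68 in NP. It fell by 6.94 on the log2 scale (standard error 0.12, adjusted *P* = 2.61e-05). *Igtp*, also called *Irgm3*, belongs to the regulatory IRG proteins that keep the effector IRG proteins off the cell's own membranes, and had an FPKM of 9.47 and 7.74 in C, 397 and 601 in N and 6.46 and 8.97 in NP (log2 difference -5.83, standard error 0.24, adjusted *P* = 8.41e-04). As mean ± SD (n = 2), *Igtp* had 499 ± 144 in N and 7.72 ± 1.78 in NP. *Irgm2* and *Irgm1* are the other regulatory members. *Irgm2* had 10.7 and 10.2 in C, 175 and 252 in N and 7.15 and 9.04 in NP (log2 difference -4.54, standard error 0.20, adjusted *P* = 8.41e-04). *Irgm1* had 11.3 and 10.7 in C, 156 and 281 in N and 10.8 and 11.9 in NP (log2 difference -4.09, standard error 0.27, adjusted *P* = 0.00234). In all 3 regulatory genes N2 was above N1, and neither NP library came near the lower N library.

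Effector IRG genes were likewise highest in the N libraries. *Iigp1*, which loads onto parasite vacuoles, had an FPKM of 29.9 and 34.5 in C, 322 and 566 in N and 14.4 and 21.4 in NP (log2 difference -4.53, standard error 0.31, adjusted *P* = 0.00253). *Gm12250*, known as *Irgb10*, had 0.576 and 0.773 in C, 32.6 and 73.7 in N and 0.387 and 0.705 in NP (log2 difference -5.03, standard error 0.37, adjusted *P* = 0.00309). *Tgtp2*, a T cell-specific GTPase gene with a near-identical neighbour, had 2.81 and 2.46 in C, 37.3 and 33.4 in N and 1.53 and 1.75 in NP (log2 difference -3.78, standard error 0.12, adjusted *P* = 5.32e-04). In *Gm12250* the N libraries differed from each other by more than 2-fold, while the C and NP libraries of all 3 genes lay well below them. *Gm12185*, another predicted GTPase gene, had 0.297 and 0.162 in C, 32.8 and 54.9 in N and 0.095 and 0.138 in NP (log2 difference -5.28, standard error 0.24, adjusted *P* = 8.41e-04). On chromosome 11, *Gm12250* (58183843 to 58190198), *Igtp* (58199556 to 58207592) and *Irgm2* (58214977 to 58222783) are neighbours, and *Irgm1* (48865245 to 48871420) and *Gm12185* (48904656 to 48927182) lie together at a distance from them.

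GBP genes fell as well. *Gbp10* had an FPKM of 1.01 and 0.58 in C, 70.5 and 61.9 in N and 1.24 and 0.212 in NP (log2 difference -5.35, standard error 0.30, adjusted *P* = 0.00154). *Gbp3* had 6.9 and 6.09 in C, 56.5 and 74.9 in N and 5.51 and 5.95 in NP (log2 difference -3.30, standard error 0.16, adjusted *P* = 9.52e-04). *Gbp6*, next to *Gbp10* on chromosome 5, had 18 and 11 in C, 214 and 169.7 in N and 19.1 and 6.73 in NP (log2 difference -3.94, standard error 0.47, adjusted *P* = 0.0208). The C and NP libraries of *Gbp6* overlapped, and NP1 was above NP2. The *Gbp6* call ended in 6 of 18 alternatives. These were leaving out C1, C2, N1 or N2, no filter, and the fit of only the N and NP libraries. The log2 difference of *Gbp6* ran from -4.63 to -3.25 over the alternatives. In the whole list of interferon-inducible GTPases, 15 of 16 genes tested passed as lower (93.8%, against 1.39% of all genes) and 0 as higher, with a median difference of -3.05 and pair medians of -2.93 and -3.24. This list and those below were chosen with earlier results of these data known, so their shares are a description only. The summed FPKM of this list was 129.5 and 118 in C, 1591 and 2294 in N and 101 and 105 in NP.

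*Vmn1r58* stood apart by its role, since it is named as a vomeronasal pheromone receptor gene. Its FPKM was 0.994 and 1.23 in C, 33.3 and 47.1 in N and 1.12 and 1.52 in NP (log2 difference -4.14, standard error 0.20, adjusted *P* = 8.41e-04). It lies on chromosome 7 from 5408887 to 5413145. Both N libraries were high and the other 4 libraries were near 1 FPKM. *Ccl8*, a chemokine that attracts monocytes and lymphocytes, had 27.8 and 38.5 in N and 1.22 and 1.16 in NP.

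**Figure D2:**
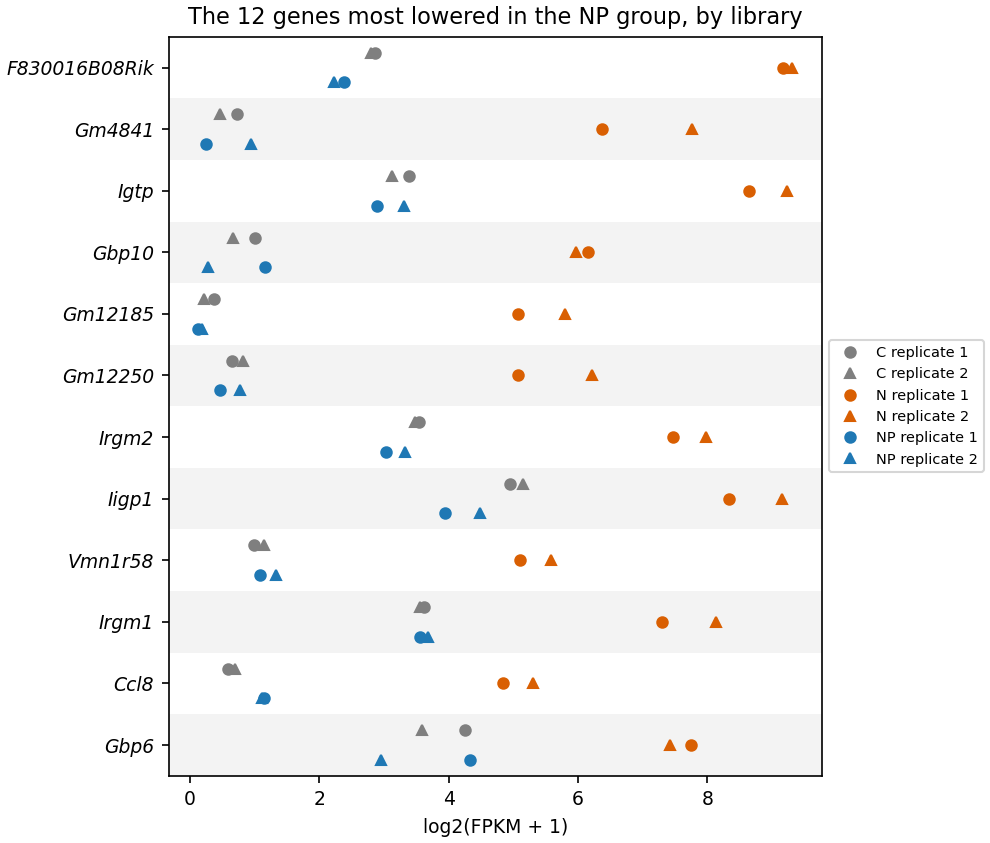
Level of the 12 most lowered genes in each of the 6 libraries, as log2(FPKM + 1) on the x axis, with colours for the groups and shapes for the replicates. In each gene both N libraries (orange) lie to the right of the C (grey) and NP (blue) libraries, as in *Igtp* with 397 and 601 FPKM in N and 6.46 and 8.97 in NP.

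Transcription factors and effectors of the interferon response fell by less. *Irf9*, a DNA-binding factor of the response, had an FPKM of 8.83 and 7.61 in C, 29.6 and 28 in N and 8.6 and 7.84 in NP (log2 difference -1.69, standard error 0.12, adjusted *P* = 0.00297). The NP libraries of *Irf9* lay within the range of the C libraries. *Parp14*, a macrodomain ADP-ribosyltransferase, had 7.4 and 6.11 in C, 22.9 and 25.7 in N and 6.9 and 6.44 in NP (log2 difference -1.72, standard error 0.13, adjusted *P* = 0.0038). *Zbp1*, a sensor of Z-form nucleic acids that starts necroptosis, had 0.823 and 0.94 in C, 10.3 and 14.6 in N and 0.34 and 0.76 in NP (log2 difference -3.11, standard error 0.21, adjusted *P* = 0.00253). *Bst2*, also called tetherin, which holds budding virions at the cell surface, had the highest mean of the antiviral list, with 40.1 and 36.1 in C, 111 and 148 in N and 34.3 and 32.1 in NP (log2 difference -1.92, standard error 0.16, adjusted *P* = 0.00549). Its adjusted *P* value was 0.0527 without NP1 and 0.0662 without NP2, in a range of 0.0031 to 0.0662. Of 30 antiviral genes tested out of 32 listed, 16 passed as lower (53.3%, against 1.39% of all genes) and 0 as higher. The median of this list was -1.30, with pair medians of -1.11 and -1.45. Negative in both pairs were 29 of the 30, against 3377 of all 12923 genes.

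Genes of MHC class I presentation, which shows peptides from inside the cell to CD8 T cells, fell nearly as a whole list. 19 of 21 passed as lower (90.5%, against 1.39% of all genes) and 0 as higher, and the median was -2.23 (pairs -2.07 and -2.20). *B2m*, the light chain of each class I molecule, was the most abundant, with an FPKM of 347 and 305 in C, 2301 and 2874 in N and 260.2 and 373 in NP (log2 difference -3.04, standard error 0.21, adjusted *P* = 0.00263). *H2-K1*, a classical heavy chain, had 109 and 91.9 in C, 956 and 933 in N and 76.9 and 104 in NP (log2 difference -3.39, standard error 0.17, adjusted *P* = 0.00103). *H2-T23*, a nonclassical chain read by natural killer cells, had 27.5 and 25.8 in C, 112 and 104 in N and 25.8 and 22.6 in NP (log2 difference -2.11, standard error 0.12, adjusted *P* = 0.00136). NP1 was below both C libraries in *B2m* and *H2-K1*, and NP2 was not. *Tap1*, a subunit of the transporter that brings peptides into the endoplasmic reticulum, had 4.63 and 3.21 in C, 44.4 and 45.1 in N and 3.13 and 2.78 in NP (log2 difference -3.53, standard error 0.16, adjusted *P* = 8.41e-04). *Psmb9*, a catalytic subunit of the immunoproteasome, had 8.93 and 7.58 in C, 64.2 and 77.3 in N and 7.94 and 8.43 in NP (log2 difference -2.96, standard error 0.14, adjusted *P* = 8.41e-04). Heavy chain genes of this family are alike in sequence, so the caution on shared reads holds for them too. The summed FPKM of the list was 1029 and 935 in C, 5172 and 5802 in N and 805 and 984 in NP.

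MHC class II molecules show peptides taken up from outside to CD4 T cells, and they mark macrophages, dendritic cells and B cells. *H2-Aa* had an FPKM of 69.6 and 65.2 in C, 414 and 374 in N and 49.8 and 51.3 in NP (log2 difference -2.94, standard error 0.11, adjusted *P* = 6.63e-04). *H2-Ab1*, the partner chain, had 53.5 and 47.4 in C, 297 and 260.4 in N and 33 and 38.4 in NP (log2 difference -2.93, standard error 0.14, adjusted *P* = 8.41e-04). *Cd74*, the invariant chain that guards the groove, had 131 and 121 in C, 916 and 636 in N and 114 and 108 in NP (log2 difference -2.78, standard error 0.18, adjusted *P* = 0.00246). In these 3 genes the NP libraries lay below the C libraries. *Ctss*, the protease that trims the invariant chain, had 21.1 and 20.2 in C, 64.6 and 63.3 in N and 14.7 and 16.5 in NP (log2 difference -1.97, standard error 0.11, adjusted *P* = 0.00136). Of 12 genes of the list tested out of 14, 8 passed as lower (66.7%, against 1.39% of all genes) and 0 as higher, with a median of -2.18 (pairs -2.27 and -2.09). *Cd274*, *Ptprc* and *Tyrobp* were singled out after their values were seen, as lowered genes outside the lists. *Cd274* encodes PD-L1, an interferon-inducible checkpoint ligand, and had 3.95 and 3.21 in C, 45 and 53.6 in N and 2.6 and 3.42 in NP (log2 difference -3.65, standard error 0.16, adjusted *P* = 8.41e-04). *Ptprc* encodes CD45, carried by leukocytes in general, and had 2.04 and 1.88 in C, 6.41 and 6.09 in N and 1.42 and 1.18 in NP (log2 difference -1.66, standard error 0.12, adjusted *P* = 0.00336). *Tyrobp* encodes an adaptor of myeloid and natural killer cell receptors and had 31.5 and 28.9 in C, 46.8 and 53.7 in N and 16.1 and 17.3 in NP (log2 difference -1.53, standard error 0.12, adjusted *P* = 0.00401). In *Ptprc* and *Tyrobp* both NP libraries were below both C libraries. Of the 179 lowered genes, 81 were in the lists and 98 were not.

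Some markers of immune cells were lower in the NP group together with the interferon genes. Of 18 macrophage markers, 8 passed as lower (44.4%, against 1.39% of all genes) and 0 as higher. Negative in both pairs were 16, against 3377 of all 12923 genes, and the median was -0.90 (pairs -1.04 and -0.81). Their summed FPKM was 331 and 305 in C, 562 and 479 in N and 251 and 222 in NP. *Lyz2*, lysozyme, was the most abundant, with 169 and 159.8 in C, 251 and 258 in N and 112 and 104 in NP (log2 difference -1.23, standard error 0.10, adjusted *P* = 0.00519). *Adgre1*, which encodes F4/80, had 5.79 and 5.81 in C, 13.2 and 11.4 in N and 5.01 and 4.17 in NP (log2 difference -1.25, standard error 0.13, adjusted *P* = 0.0129). Both genes were highest in N and lowest in NP, without overlap. *Csf1r*, the receptor of the macrophage growth factor, had 17.4 and 16.3 in C, 33.6 and 23.4 in N and 18.3 and 14.6 in NP (log2 difference -0.75, standard error 0.20, adjusted *P* = 0.277), which did not pass. Of 18 alternatives, *Csf1r* passed in 1, the replicate block for the N and NP pairs (adjusted *P* = 0.0178), and not with the other 2 uses of a block. Leaving out NP2 gave *Lyz2* an adjusted *P* value of 0.0561, in a range of 0.00162 to 0.0561. The *Adgre1* call ended in 7 of 18 alternatives, with each library left out and in the fit of only the N and NP libraries. The log2 difference of *Adgre1* ran from -1.40 to -1.14 over the alternatives. None of the defining markers of macrophages was at 0 in any library, and the part of cell numbers in the interferon and MHC differences was not tested.

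Lymphocyte markers were near the limit of detection. The *Cd3e*, *Cd3d* and *Cd3g* genes of the T cell receptor complex lay under the filter, and its chain genes *Trac* and *Trbc2* had no values. *Cd3e* had an FPKM of 0.0309 and 0.0375 (C), 0.646 and 0.372 (N) and 0.0986 and 0 (NP), and *Cd3g* had 0.0933 and 0.113 (C), 1.12 and 0.561 (N) and 0 and 0.144 (NP). Both N libraries were above the others in these genes, and *Cd3e* was listed at 0 in NP2 and *Cd3g* in NP1. Only 5 of the 20 T and natural killer cell markers in the files were tested, and 3 passed as lower. *Nkg7*, a cytotoxic granule gene, had 0.063 and 0.229 (C), 3.58 and 3.4 (N) and 0.201 and 0 (NP) (log2 difference -2.03, standard error 0.16, adjusted *P* = 0.00465), and its adjusted *P* value was 0.0513 with a pseudocount of 0.1, the highest over its alternatives. The summed FPKM of this list was 4.37 and 3.85 in C, 24.9 and 23.8 in N and 3.45 and 2.47 in NP. In the B and plasma cell list 0 of 5 genes tested passed, with a median of -0.94. Its members *Jchain* and *Cd79b* also passed the filter through N alone. *Cd79a*, part of the B cell receptor, had 0.373 and 0.206 (C), 2.43 and 1.53 (N) and 0.433 and 0.628 (NP) (log2 difference -0.95, standard error 0.20, adjusted *P* = 0.14). In the neutrophil list 1 of 4 genes tested passed as lower (25%, against 1.39% of all genes), with a median of -0.86. It was *S100a8*, a calprotectin subunit, with 2.97 and 1.8 (C), 3.81 and 3.73 (N) and 0 and 0.637 (NP) (log2 difference -1.90, standard error 0.28, adjusted *P* = 0.0424). This call ended in 14 of 18 alternatives, and leaving out any library ended it. So did a pseudocount of 0.1, no filter, a mean of at least 2 FPKM, scaling to the same median and quantile normalization. The replicate block over the 6 libraries and both fits of only the N and NP libraries ended it too. The log2 difference of *S100a8* ran from -3.83 to -1.54 over the alternatives. The median of the dendritic cell list was -0.17 over 5, or 0.06 without NP2 and -0.40 without NP1. How far these cells take part in the lowered MHC and cytokine genes was not tested.

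Chemokines, cytokines and complement showed a mix of lowered genes and genes that did not pass. Of 18 chemokines tested, 6 passed as lower (33.3%, against 1.39% of all genes) and 0 as higher, with a median of -1.03. *Ccl5*, which draws T cells and monocytes, had 0.953 and 0.723 in C, 14.6 and 18.8 in N and 0.761 and 0 in NP (log2 difference -3.73, standard error 0.29, adjusted *P* = 0.0038). Its highest adjusted *P* value over the alternatives was 0.0543, with a pseudocount of 0.1, and the call also ended in the fit of only the N and NP libraries with the replicate block. *Cxcl13*, which guides B cells, had 0.0796 and 0.193 in C, 5.12 and 3.48 in N and 0.636 and 0.982 in NP (log2 difference -1.54, standard error 0.20, adjusted *P* = 0.0295). This call was lost in 9 of 17 alternatives. These were leaving out C1, C2, N1, NP1 or NP2, a pseudocount of 0.1, no filter, and both fits of only the N and NP libraries. The log2 difference of *Cxcl13* ran from -2.28 to -1.31 over the alternatives. *Cxcl12*, a stromal chemokine and the most abundant of the list, had 52.3 and 49.3 in C, 46 and 44.2 in N and 52.7 and 56.1 in NP (log2 difference 0.27, standard error 0.10, adjusted *P* = 0.577). *Ccl2*, the main monocyte attractant, had 3.76 and 1.55 in C, 5.72 and 11.5 in N and 2.04 and 2.74 in NP (log2 difference -1.44, standard error 0.40, adjusted *P* = 0.302). The N libraries of *Ccl2* were apart from each other, and NP lay below both. *Tnfsf10*, the death ligand TRAIL, was the only one of 6 cytokine genes tested to pass (16.7%, against 1.39% of all genes). It had 4.56 and 4.27 in C, 13 and 14.2 in N and 4.99 and 4.43 in NP (log2 difference -1.36, standard error 0.12, adjusted *P* = 0.00621). The *Tnfsf10* call ended in 5 of 18 alternatives, without C1, C2 or NP2 and in both fits of only the N and NP libraries. The log2 difference of *Tnfsf10* ran from -1.51 to -1.28 over the alternatives. *Tnf* and *Il6* lay under the filter. *Tnf* had 0.183 and 0.191 (C), 0.162 and 0.317 (N) and 0.0837 and 0.0838 (NP). *Il6* was listed at 0 in 5 libraries and had 0.129 in N1.

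In the complement list, 2 of 16 genes tested passed as lower (12.5%, against 1.39% of all genes), with a median of -0.84 and pair medians of -1.13 and -0.51. *C1qb*, a subunit of C1q made by macrophages, had 61.7 and 53 in C, 143 and 121 in N and 50.5 and 44.9 in NP (log2 difference -1.45, standard error 0.14, adjusted *P* = 0.00971). Its adjusted *P* value was 0.0538 without N1, 0.0612 without NP1 and 0.0856 without NP2, in a range of 0.00173 to 0.0856. *Serping1*, the C1 inhibitor and the most abundant, had 75.3 and 76.5 in C, 168 and 121 in N and 97.1 and 92.8 in NP (log2 difference -0.58, standard error 0.17, adjusted *P* = 0.335). N1 was higher than N2 in *Serping1*, and NP lay between C and N. In the inflammasome and interleukin-1 list 2 of 12 genes tested (16.7%, against 1.39% of all genes) passed as lower, *Zbp1* and *Il18bp*, with a median of -0.57. *Casp1*, the protease of the inflammasome, had 1.54 and 1.55 in C, 3.21 and 4.29 in N and 1.48 and 1.8 in NP (log2 difference -0.84, standard error 0.16, adjusted *P* = 0.102). Of 18 alternatives, *Casp1* passed as lower in 1, the replicate block for the N and NP pairs (adjusted *P* = 0.0267). *Il1b*, its cytokine substrate, had 0.61 and 0.823 in C, 0.912 and 1.23 in N and 0.325 and 0.209 in NP (log2 difference -0.70, standard error 0.16, adjusted *P* = 0.178), and *Pycard*, the adaptor ASC, had 3.42 and 3.22 in C, 2.7 and 4.33 in N and 2.01 and 2.92 in NP (log2 difference -0.37, standard error 0.22, adjusted *P* = 0.847). The sensor *Nlrp3* lay under the filter, with 0.238 and 0.216 (C), 0.829 and 0.69 (N) and 0.19 and 0.0922 (NP). *Il18bp*, the soluble decoy of interleukin-18, had 4.95 and 5.9 in C, 16.2 and 20.8 in N and 5.38 and 6.67 in NP (log2 difference -1.47, standard error 0.17, adjusted *P* = 0.0199). The *Il18bp* call ended in 7 of 18 alternatives. These were leaving out C1, C2, N2, NP1 or NP2, no filter, and the fit of only the N and NP libraries. The log2 difference of *Il18bp* ran from -1.64 to -1.30 over the alternatives.

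**Figure D3:**
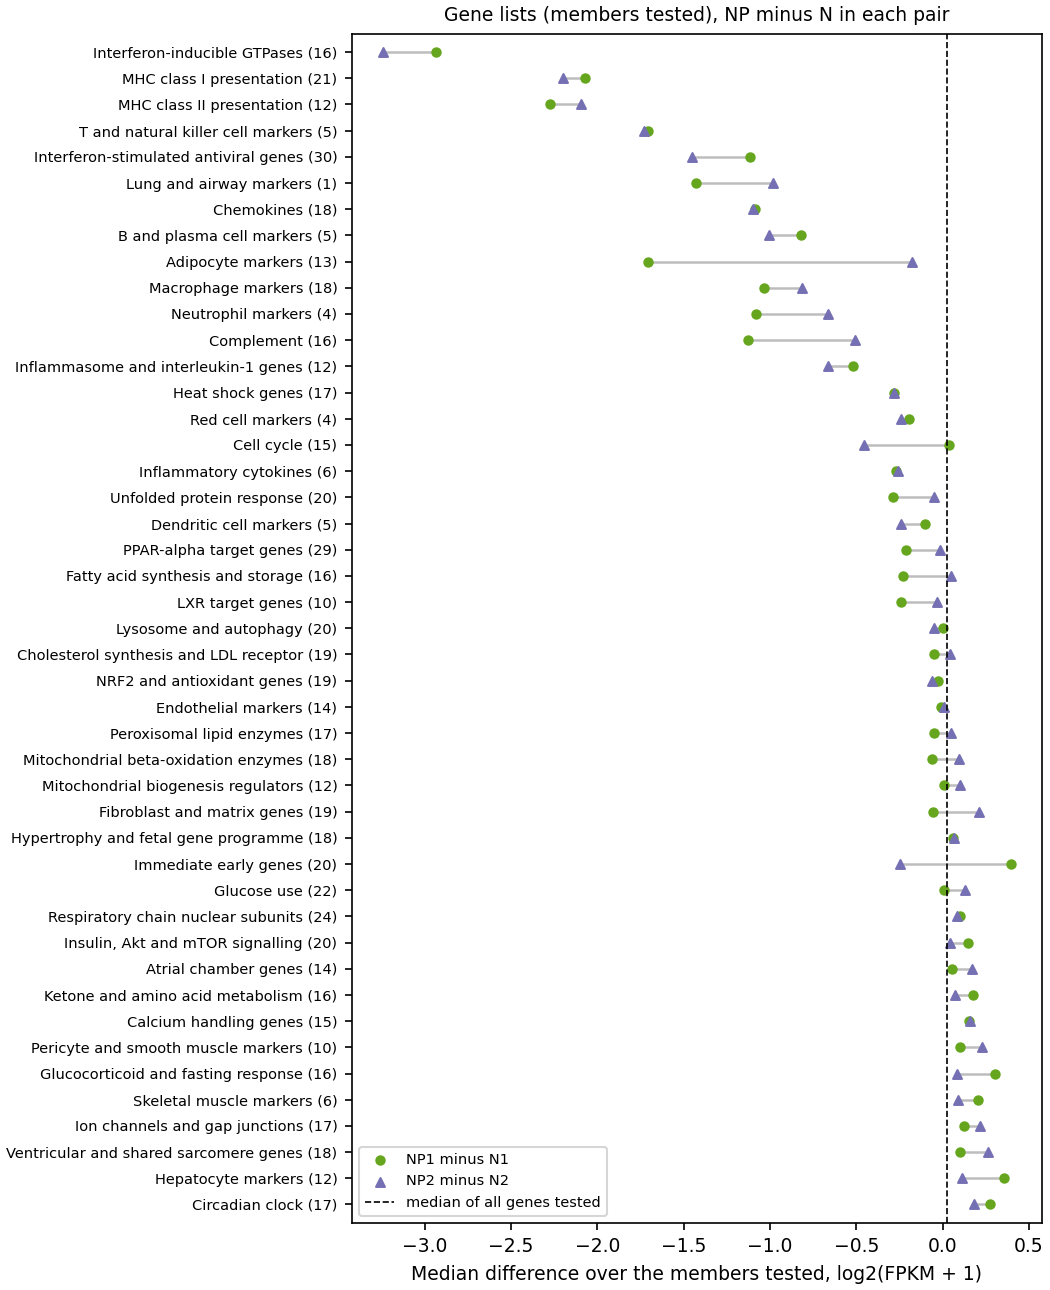
Median difference between NP and N on log2(FPKM + 1) over the tested members of each gene list (number in brackets), in pair 1 (circles) and pair 2 (triangles), with the median of all genes as a dashed line at 0.03. The GTPase and MHC lists lie beyond -2 in both pairs, and the metabolic and heart muscle lists lie within 0.5 of 0.

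In the plot of list medians the GTPase, MHC class I and MHC class II lists were the most negative in both pairs. Not every immune list was low, since the pair medians were -0.10 and -0.24 for dendritic cell markers and -0.27 and -0.26 for inflammatory cytokines. Some other lists were as negative as these or more so, with -0.28 and -0.28 for heat shock genes and -1.43 and -0.99 for the only lung and airway marker tested. Only lists of interferon, MHC, chemokine, inflammasome, cytokine, complement and immune cell genes held a gene lower by adjusted *P* value, and in none of the 45 lists was a gene higher by it. Adipocyte markers differed between the pairs, at -1.71 in pair 1 and -0.18 in pair 2. Their values are given with the other cell types below.

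Genes raised in the NP group were few and short of the adjusted threshold. The 12 with the largest moderated t, among those whose groups did not overlap and whose pairs were both positive, were *Scgb1c1*, *Mkln1os*, *Lgals6*, *D830032E09Rik*, *Inadl*, *Tpsb2*, *Lpin3*, *Zfp1*, *Myh7*, *Lrp3*, *Lrrc10* and *Sdc1*. *Scgb1c1*, a secretoglobin gene, had an FPKM of 58.3 and 50.8 in C, 16.7 and 17 in N and 29.8 and 39.9 in NP (log2 difference 0.99, standard error 0.16, adjusted *P* = 0.0632). The NP libraries lay between the N and the C libraries. *Lrrc10*, a leucine-rich repeat protein of cardiac muscle, had 177 and 158 in C, 113 and 98 in N and 203 and 158 in NP (log2 difference 0.76, standard error 0.16, adjusted *P* = 0.144). *Myh7*, the slow β-myosin heavy chain, had 26.4 and 29.3 in C, 22.8 and 16.7 in N and 33.6 and 36.8 in NP (log2 difference 0.82, standard error 0.17, adjusted *P* = 0.132). NP was above N in both genes without overlap, and in *Myh7* also above C.

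*Lgals6* had the widest difference of these 12, with an FPKM of 3.39 and 4.71 in C, 9.40e-04 and 0.0644 in N and 2.19 and 6.12 in NP (log2 difference 2.21, standard error 0.38, adjusted *P* = 0.0703). It encodes a galectin with a near-identical neighbour, *Lgals4*, which was looked at for this reason and had 38.7 and 47 in C, 20.6 and 19.5 in N and 18.7 and 9.98 in NP. The *Lgals6* values were near 0 in both N libraries, and *Lgals4* was lowest in NP2, the library where *Lgals6* was highest. Reads cannot be assigned with certainty between such copies, so the *Lgals6* difference is uncertain. *Tpsb2*, a tryptase of mast cells, had 1.04 and 0.943 in C, 1.42 and 1.56 in N and 3.45 and 2.8 in NP (log2 difference 0.72, standard error 0.14, adjusted *P* = 0.108). *Lpin3*, a lipin that makes diacylglycerol, had 2.85 and 2.45 in C, 1.83 and 1.47 in N and 3.41 and 3.16 in NP (log2 difference 0.69, standard error 0.14, adjusted *P* = 0.117). *Inadl*, a scaffold of tight junctions, had 5.13 and 5.18 in C, 4.51 and 4.41 in N and 6.95 and 6.9 in NP (log2 difference 0.54, standard error 0.10, adjusted *P* = 0.108). In these 3 genes both NP libraries were above both N libraries and both C libraries. *Sdc1*, a cell surface proteoglycan, had 2.1 and 2.01 in N and 3.35 and 4.07 in NP. The remaining raised genes, *Mkln1os*, *D830032E09Rik*, *Zfp1* and *Lrp3*, had log2 differences of 0.87, 0.69, 0.57 and 0.57. *Mkln1os* passed with no filter, with the filter over the N and NP libraries and with no trend in the moderation, with a lowest adjusted *P* value of 0.0341.

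Of the 24 genes higher by at least 1.5-fold in both pairs, the median log2 difference was 0.83, and 17 had a mean under 5 FPKM in the N and NP libraries. Both N libraries lay below both C libraries in 18 of the 24, and both NP libraries lay above both C libraries in 11. The 24 were picked by their N and NP values, and the shares over all genes were not counted. *Ddit4*, a stress-induced inhibitor of mTORC1 that glucocorticoids raise, was among them, with 37.9 and 37.7 in C, 37.4 and 26.3 in N and 110.2 and 53 in NP (log2 difference 1.26, standard error 0.35, adjusted *P* = 0.31). NP1 had the highest value of *Ddit4*, more than any other library by a wide margin. *Aqp1*, the water channel of capillary endothelium, was also among them, with 243 and 262 in C, 196 and 161 in N and 298 and 243 in NP (log2 difference 0.60, standard error 0.15, adjusted *P* = 0.252). With the pairs as a replicate block for the N and NP libraries, *Ddit4*, *Aqp1*, *Scgb1c1*, *Lgals6* and *Lrrc10* were among the 12 genes that passed as higher, and so was *Hspb7*, a small heat shock protein of heart muscle with 887 and 862 in C, 611 and 534 in N and 839 and 726 in NP. With NP replicate 1 left out *Lgals6* passed as higher, and with a pseudocount of 0.1 it was the only gene that did. The NP libraries of *Hspb7* lay between N and C.

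**Figure D4:**
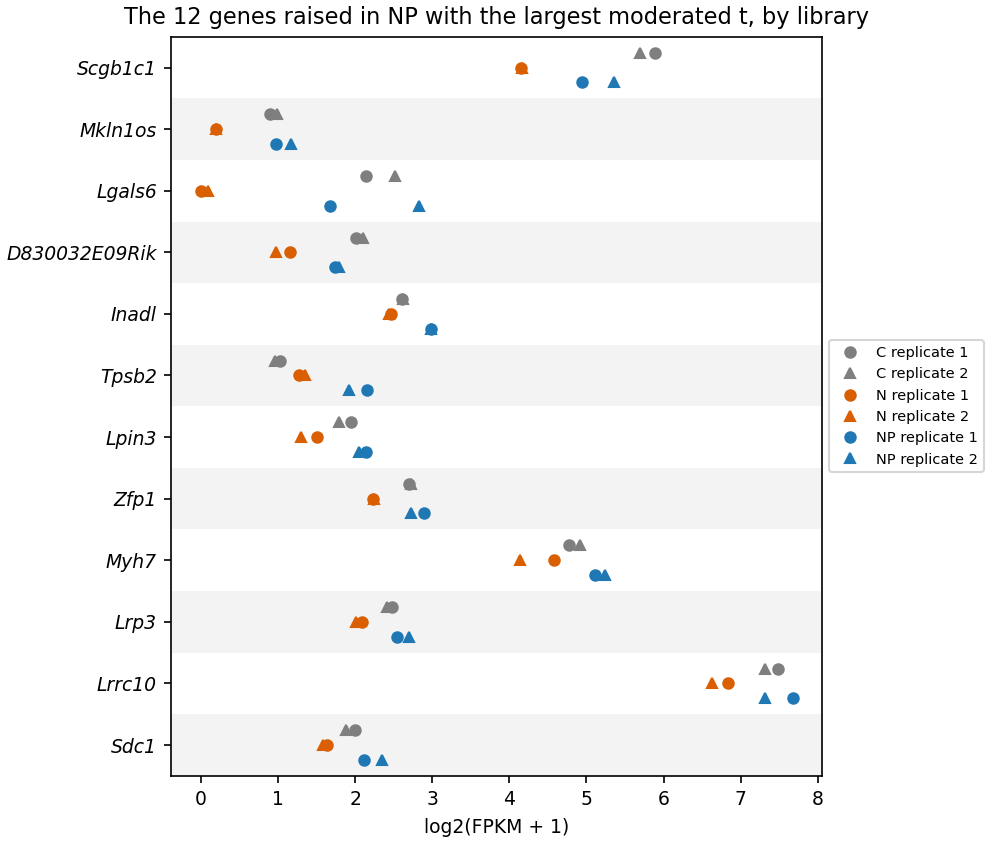
Level of the 12 genes raised in NP with the largest moderated t in each of the 6 libraries, as log2(FPKM + 1) on the x axis, with colours for the groups and shapes for the replicates. NP (blue) lies to the right of N (orange) in each gene, as in *Lrrc10* with 203 and 158 FPKM in NP and 113 and 98 in N. Between the group means, the difference is widest in *Lgals6* and less than 1 in the other 11.

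Among PPARα target genes, through which fibrates are known to act on fat use, 0 of 29 tested out of 34 listed passed in either direction in limma's test. The median was -0.13 (pairs -0.21 and -0.02), but 0.07 without N1 and -0.31 without N2, and 12 were negative and 5 positive in both pairs. Over all 12923 genes tested, 3377 were negative and 4341 positive in both pairs. *Pdk4*, which shuts glucose carbon out of the citric acid cycle, had an FPKM of 1038 and 1108 in C, 996 and 129 in N and 338 and 89.5 in NP (log2 difference -1.04, standard error 1.03, adjusted *P* = 0.956). *Angptl4*, an inhibitor of lipoprotein lipase, had 35.5 and 32.8 in C, 39.1 and 5.6 in N and 9.56 and 3.32 in NP (log2 difference -1.27, standard error 0.85, adjusted *P* = 0.89). N1 resembled the C libraries in both genes while N2 was far lower, so that the N group spans nearly the whole range and overlaps with NP. In both genes each NP library was below the N library of its pair. Without N1 the log2 difference was 0.43 for *Pdk4* and 0.03 for *Angptl4*.

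Other targets moved less. *Plin2*, which coats lipid droplets, had 50.9 and 50.5 in C, 61.4 and 44.8 in N and 38 and 32.4 in NP (log2 difference -0.57, standard error 0.17, adjusted *P* = 0.381). Of 18 alternatives, *Plin2* passed in 1, the replicate block for the N and NP pairs (adjusted *P* = 0.0328). *Cpt1a*, the liver-type gate of fatty acid entry into mitochondria, had 21.3 and 23.2 in C, 25 and 16.9 in N and 15.2 and 14.6 in NP (log2 difference -0.44, standard error 0.19, adjusted *P* = 0.665). In both genes the NP libraries lay below all others. *Ucp2*, a mitochondrial carrier, had 51.1 and 58.7 in C, 124 and 113 in N and 98.1 and 101 in NP (log2 difference -0.25, standard error 0.12, adjusted *P* = 0.734), and its N and NP libraries were all above the C libraries. *Fabp3*, the fatty acid binding protein of heart muscle and the most abundant target, had 9888 and 10233 in C, 7176 and 7985 in N and 5957 and 8109 in NP (log2 difference -0.12, standard error 0.17, adjusted *P* = 0.979). *Ppara*, *Cyp4a10*, *Cyp4a14* and *Fgf21* were picked after their values were seen, as the receptor and as targets known for large responses in liver. *Ppara* had 20.8 and 19.1 in C, 22.9 and 30.4 in N and 27.1 and 27.6 in NP (log2 difference 0.05, standard error 0.15, adjusted *P* = 0.995). *Cyp4a14* had 0 and 0.301 (C), 0.0494 and 0 (N) and 0.264 and 0 (NP), *Cyp4a10* had 0.0403 and 0.88 (C), 0 and 0 (N) and 0.129 and 0 (NP), and *Fgf21* was listed at 0 in all 4 N and NP libraries, so these targets were at or near 0 in heart.

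**Figure D5:**
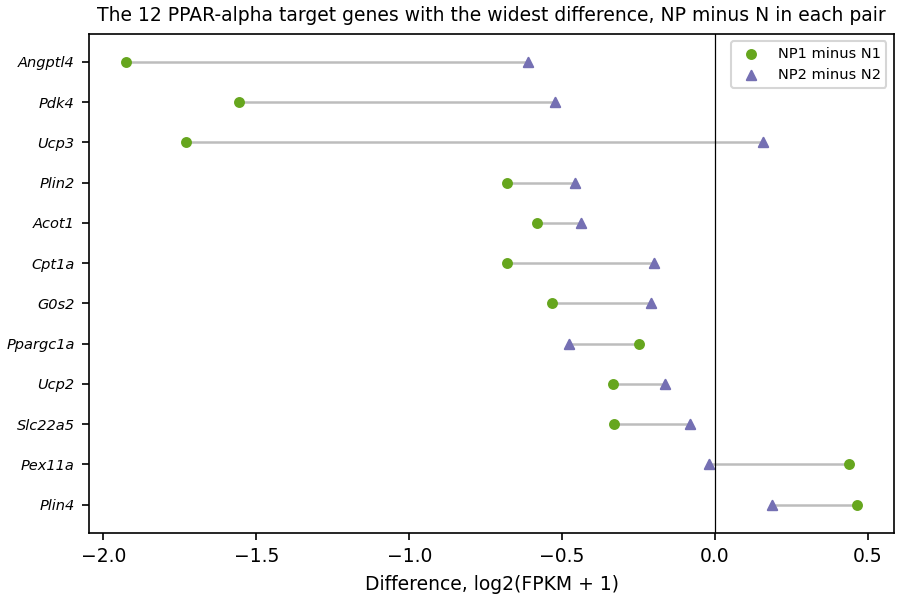
Difference between NP and N on log2(FPKM + 1) for the 12 PPARα target genes with the widest difference out of 29 tested, in pair 1 (circles) and pair 2 (triangles), joined by a line. *Angptl4* and *Pdk4* lie far to the left in pair 1 (-1.93 and -1.56) and less so in pair 2 (-0.61 and -0.52), and none of the 12 lies beyond 0.5 to the right.

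Lists of energy metabolism had medians near 0, of either sign, and 0 of their genes passed in limma's test. Ranges in brackets after a list median are those with 1 N or NP library left out, here and below. The median was 0.04 (-0.01 to 0.06) for 18 enzymes of mitochondrial β-oxidation, 0.02 (-0.10 to 0.05) for 17 peroxisomal lipid enzymes and 0.09 (0.02 to 0.15) for 22 genes of glucose use. Respiratory chain subunits had a median of 0.10, with 19 of 24 positive in both pairs, and genes of ketone and amino acid use had 0.13 (0.05 to 0.21), with 11 of 16. Over all genes tested, 4341 of 12923 were positive in both pairs. Without N1 the respiratory chain median was -0.01, and without N2 it was 0.18. *Cyc1*, cytochrome c1 of complex III, had 1083 and 1093 in C, 792 and 746 in N and 913 and 860.2 in NP (log2 difference 0.20, standard error 0.10, adjusted *P* = 0.782). *Bckdk*, which switches off branched-chain amino acid breakdown, had 46.1 and 47.3 in C, 39.3 and 35 in N and 45 and 42.8 in NP (log2 difference 0.24, standard error 0.11, adjusted *P* = 0.728). In both genes NP lay between N and C. *Hadhb*, a subunit of the trifunctional protein of β-oxidation, had 1511 and 1618 in C, 1418 and 1377 in N and 1312 and 1334 in NP (log2 difference -0.08, standard error 0.10, adjusted *P* = 0.977). Fatty acid synthesis and storage genes had a median of -0.13 (-0.27 to 0.04), with -0.23 and 0.05 in the pairs. *Scd1*, the stearoyl-CoA desaturase, had 4.36 and 8.19 in C, 135 and 38.4 in N and 10.4 and 39.5 in NP (log2 difference -1.77, standard error 0.79, adjusted *P* = 0.703), with N1 highest and NP1 well below N2 and NP2. The synthesis enzymes *Fasn* and *Acaca* likewise differed in pair 1 only, with pair differences of -1.99 and 0.05 and of -1.11 and 0.02. Cholesterol synthesis genes had a median of -0.01 (-0.09 to 0.07), which was 0.06 with quantile normalization, and LXR target genes had -0.11 (-0.32 to 0.02). *Abcg1*, a cholesterol exporter, had 1.18 and 0.972 in C, 4.31 and 3.67 in N and 2.82 and 2.97 in NP (log2 difference -0.36, standard error 0.13, adjusted *P* = 0.553).

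Lists of heart muscle genes had small positive medians, without a gene that passed. The median was 0.18 for 18 ventricular and shared sarcomere genes, of which 14 were positive in both pairs, 0.14 (0.03 to 0.18) for 15 calcium handling genes and 0.18 (0.08 to 0.32) for 17 ion channel and gap junction genes. Over all genes tested, 4341 of 12923 were positive in both pairs. *Mybpc3*, myosin binding protein C, had 1316 and 1211 in C, 974 and 725 in N and 1209.7 and 1094 in NP (log2 difference 0.45, standard error 0.17, adjusted *P* = 0.547). *Ryr2*, the calcium release channel, had 175 and 167 in C, 141 and 131 in N and 231 and 155 in NP (log2 difference 0.47, standard error 0.20, adjusted *P* = 0.645). *Hcn2*, a pacemaker channel, had 11.7 and 10.9 in C, 8.29 and 7.81 in N and 11 and 10.8 in NP (log2 difference 0.39, standard error 0.10, adjusted *P* = 0.273). In these 3 genes both NP libraries were above both N libraries, as in 1958 of the 12923 genes tested. *Myl2*, the ventricular light chain, had 24052 and 26366 in C, 11855 and 17042 in N and 12145 and 18366 in NP (log2 difference 0.07, standard error 0.26, adjusted *P* = 0.996), with replicate 2 above replicate 1 in both groups. The hypertrophy and fetal programme list had a median of 0.07 (0.05 to 0.20), and the mitochondrial biogenesis list 0.04 (-0.10 to 0.18).

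Atrial genes were more abundant in the N and NP libraries than in the C libraries by their sum. The summed FPKM of the atrial list was 817 and 685 in C, 4483 and 5825 in N and 4495 and 6939 in NP. *Nppa*, atrial natriuretic peptide and the most abundant member, had 303 and 158 in C, 1992 and 2647 in N and 2082 and 3259 in NP. *Myl7*, the atrial light chain, had 1.51 and 6.7 in C, 857 and 1193 in N and 781 and 1319 in NP. The median NP minus N difference of this list was 0.12 (-0.13 to 0.38), with 0 of 14 genes passing. Hepatocyte markers were highest in C2, with summed FPKM of 58.4 and 707 in C, 12.1 and 14.5 in N and 20.2 and 15.8 in NP. *Alb* had 10.8 and 211 in the C libraries. The C libraries entered the NP minus N test through the spread, and its count without each of them is given above.

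Clock genes differed more between replicates than between groups. In 17 of 17 tested the replicates had the same order in N and NP, and in 16 the mean difference between replicates was wider than that between NP and N. This was not particular to clock genes. The same 2 counts were 25 and 24 of 29 PPARα target genes and 21 and 19 of 24 respiratory chain subunits. For interferon-inducible GTPases they were 11 and 0 of 16, and the shares over all genes were not counted. *Tef*, a clock output factor, had 21.2 and 51.1 in N and 31.8 and 59.4 in NP. *Hlf*, its relative, had 3 and 8.93 in N and 4.91 and 12.3 in NP. *Per1*, a repressor of the clock loop, had 9.71 and 20.3 in N and 16.1 and 23.7 in NP. Replicate 2 was above replicate 1 in both groups for each of these 3 genes. The median of the list was 0.27 (pairs 0.27 and 0.18), and it was -0.13 without N1, 0.66 without N2, 0.60 without NP1 and -0.05 without NP2. Glucocorticoid and fasting response genes had a median of 0.15 (-0.12 to 0.39, negative without NP1) and immediate early genes 0.08 (-0.12 to 0.36, negative without N1 or NP1), with pair medians of 0.39 and -0.25 for the latter. *Nr4a3*, an orphan nuclear receptor induced by stress signals, came nearest to passing among the immediate early genes, with 2.88 and 2.44 in C, 10.6 and 10.6 in N and 4.47 and 5.77 in NP (log2 difference -0.94, standard error 0.15, adjusted *P* = 0.0518). It passed as lower with the filter over the N and NP libraries, with the library totals made equal and with the replicate block for the pairs, where its adjusted *P* value was 0.0247. Its N libraries were above both NP libraries, and NP was above C.

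Heat shock and unfolded protein response genes had negative medians, and 0 of them passed in the main test. Of 17 heat shock genes 13 were negative in both pairs, against 3377 of all 12923 genes. Their median was -0.34, but -0.07 without N2 and -0.19 without NP1. *Hsp90aa1*, the inducible cytosolic chaperone, had 86.3 and 95.1 in C, 128 and 167 in N and 84.5 and 98.9 in NP (log2 difference -0.67, standard error 0.16, adjusted *P* = 0.22). *Hsph1*, a chaperone of the Hsp110 family that works with Hsp70, had 23.7 and 23 in C, 41.7 and 54.2 in N and 23 and 31.9 in NP (log2 difference -0.79, standard error 0.20, adjusted *P* = 0.225). Both N libraries were above the rest in both genes. With the replicate block for the N and NP pairs both passed as lower, with adjusted *P* values of 0.0218 and 0.00733, and *Hsp90aa1* also with the block over the 6 libraries. None of the other alternatives, out of 18, gave either gene a call. The unfolded protein response list had a median of -0.18 over 20 genes, or -0.01 without N1 and -0.34 without N2. *Sdf2l1*, an endoplasmic reticulum chaperone cofactor, had 8.31 and 10.6 in C, 10.5 and 9.4 in N and 5.66 and 5.86 in NP (log2 difference -0.69, standard error 0.14, adjusted *P* = 0.135), and *Pdia3*, which folds glycoproteins and loads class I molecules, had 78.5 and 89.1 in C, 100.1 and 92 in N and 71.8 and 70.7 in NP (log2 difference -0.43, standard error 0.11, adjusted *P* = 0.277). Medians were 0.004 (-0.13 to 0.02) for NRF2 and antioxidant genes, -0.28 (-0.38 to -0.16, with 0.04 and -0.46 in the pairs) for cell cycle genes, -0.01 (-0.06 to 0.02) for lysosome and autophagy genes and 0.10 (-0.03 to 0.26) for insulin, Akt and mTOR signalling genes, and 0 genes passed in these lists.

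Markers of the vessel wall and stroma had medians near that of all genes. The median was 0.01 for 14 endothelial markers (-0.17 to 0.19, and -0.01 with the library totals made equal), 0.04 (-0.06 to 0.23, with -0.06 and 0.21 in the pairs) for 19 fibroblast and matrix genes and 0.15 (0.08 to 0.31) for 10 pericyte and smooth muscle markers, with 0 genes passing. *Cdh5*, the cadherin of endothelial junctions, had 80.1 and 73.5 in C, 72.2 and 59.7 in N and 100.2 and 73.5 in NP (log2 difference 0.38, standard error 0.18, adjusted *P* = 0.741). *Mmp2*, a matrix protease of fibroblasts, had 24.1 and 24.8 in C, 26.4 and 20.8 in N and 30.3 and 33.5 in NP (log2 difference 0.43, standard error 0.14, adjusted *P* = 0.451). *Rgs5*, a pericyte marker, had 159 and 144 in C, 153 and 141 in N and 185 and 175 in NP (log2 difference 0.29, standard error 0.11, adjusted *P* = 0.575). In these 3 genes both NP libraries were above both N libraries, as in 1958 of the 12923 genes tested. Other members went the other way. *Icam1*, an adhesion molecule for leukocytes, had the largest moderated t of the endothelial list, with 7.93 and 5.08 in C, 14.8 and 14.4 in N and 5.39 and 6.58 in NP (log2 difference -1.17, standard error 0.20, adjusted *P* = 0.077), and *Vcam1*, of like role, had 6.04 and 7.26 in C, 12.8 and 15.1 in N and 7.23 and 9.81 in NP (log2 difference -0.66, standard error 0.18, adjusted *P* = 0.288). In the fibroblast list *Acta2*, smooth muscle α-actin, had 40.2 and 32.7 in C, 58.3 and 67.7 in N and 49.8 and 53.6 in NP (log2 difference -0.28, standard error 0.14, adjusted *P* = 0.796). Both NP libraries were below both N libraries in *Icam1*, *Vcam1* and *Acta2*, as in 1898 of the 12923 genes tested.

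Adipocyte markers differed more in pair 1 than in pair 2. Of 13 tested out of 14, 11 were negative in both pairs and 0 passed, with a median of -0.93 (-1.73 to -0.26) and pair medians of -1.71 and -0.18. Over all genes tested, 3377 of 12923 were negative in both pairs. The summed FPKM was 1842 and 1869 in C, 1752 and 1741 in N and 1447 and 1609 in NP, and *Fabp4*, which capillary endothelium also makes, was the most abundant, with 1341 and 1322 in C, 1005 and 1195 in N and 995 and 1057 in NP. *Adipoq*, adiponectin, had 0.593 and 1.12 in C, 16 and 14.6 in N and 1.66 and 11.9 in NP (log2 difference -1.48, standard error 0.68, adjusted *P* = 0.733), and passed as lower without NP2 (adjusted *P* = 0.0325). *Ucp1*, the brown fat uncoupler, had 0 and 0.064 in C, 5.84 and 14.3 in N and 0 and 13 in NP. *Cfd*, adipsin, had 1.17 and 5.53 in C, 142 and 53.5 in N and 11.2 and 44.3 in NP (log2 difference -1.91, standard error 0.83, adjusted *P* = 0.687). NP1 was low and both N libraries and NP2 were high in these genes, and *Ucp1* was listed at 0 in C1 and NP1. Skeletal muscle and red cell lists had medians of 0.17 (0.03 to 0.23) and -0.30 (-0.50 to -0.10), and surfactant gene *Sftpc*, which marks lung, was listed at 0 in all 6 libraries.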

How the data were processed

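The authors mapped single-end reads to mm10 with TopHat2 2.0.13, Bowtie2 2.2.3 and SAMtools 0.1.19 and computed FPKM with Cufflinks 2.2.1, and these deposited FPKM were used without further scaling. Differences were taken on log2(FPKM + 1) for genes that averaged 0.5 FPKM or more across 6 libraries. limma 3.58.1 in R 4.3.3 fitted the 3 groups in 1 model, with a mean trend, which left 3 residual degrees of freedom. Benjamini-Hochberg adjustment ran over 12923 genes, with a threshold of 0.05. An exact permutation test of 2 against 2 libraries cannot go below 0.333 and was not used. Values were summarised in Python 3.11.15 (pandas 2.3.3, numpy 2.4.6, matplotlib 3.10.9). The named genes were the 12 most lowered, the 12 raised, the 4 members with the largest moderated t and the most abundant member of each of 45 lists, and genes the study names, of which some are not reported here. Members and lists were chosen with earlier results of these data known. Depth was estimated from the FPKM steps of 4245 genes with 1 transcript, with 200 bases taken off the length, and 74.4% to 79.4% of values up to 5 reads lay within 0.1 of a whole read. The test and the depth estimate were tested on simulated data. Gene positions and promoters are from RefSeq on GRCm38.p6. Alternatives covered pseudocount, filter, scaling, model, replicate block and each library left out.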

Additional observations from a re-analysis of the deposited data

How the results depend on the processing

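Of the 179 lowered genes, all had a negative difference under each alternative in which they were tested, but their number moved. It was 289 with the replicate block for the N and NP pairs, 78 with only the N and NP libraries, 110 with those and the replicate block, and 65 to 106 with 1 library left out. Of the calls made without a library, 63 to 87 were among the 179. The number of higher genes, 0, became 1 with a pseudocount of 0.1, 6 with no filter, 1 with the filter over the N and NP libraries, 4 with the replicate block over the 6 libraries, 12 with the block for the pairs, 1 with no trend, and 0 to 10 with 1 library left out. By the pair rule, 2-fold gave 190 lower and 4 higher genes, and the higher genes were 111 with a pseudocount of 0.1 and 15 at a mean of at least 2 FPKM. Leaving out C replicate 1 or 2 was chosen after the data were seen. An arm left with 1 library was assumed to vary like the other groups. The cause of these changes was not tested, apart from the fewer samples.

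For 104 genes named, 1866 differences were computed under an alternative. Of these, 1766 kept direction and side of the threshold, 57 lost the call, 23 gained it and 20 changed sign. No lowered gene changed sign. With 1 library left out, the difference ran from -2.57 to 0.033 for *Angptl4*, -0.35 to 0.099 for *Fabp3*, -0.22 to 0.029 for *Fabp4*, -0.16 to 1.15 for *Hlf*, -0.23 to 0.37 for *Myl2* and -0.37 to 0.38 for *Myl7*. It ran from -0.14 to 0.50 for *Nppa*, -2.51 to 0.43 for *Pdk4*, -0.053 to 0.94 for *Per1*, -0.15 to 0.24 for *Ppara*, -0.23 to 1.001 for *Tef* and -3.35 to 0.45 for *Ucp1*. Leaving out N1 turned the sign of *Angptl4* (0.033), *Pdk4* (0.43), *Hlf*, *Myl2*, *Myl7*, *Nppa*, *Per1*, *Ppara* and *Tef*, and N2 that of *Fabp4*. Leaving out NP1 turned that of *Fabp3* and *Ucp1*, and NP2 that of *Hlf*, *Myl2*, *Myl7*, *Nppa* and *Tef*. Quantile normalization gave -0.00816 for *Myh6* and -0.045 for *Myl7*, and scaling to the same total gave -0.014 for *Myl7*. The cause was not tested.

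With 2 libraries a group and 8210000 to 8760000 reads, genes under about 1 FPKM rest on few reads. Animals, cages and days of collection are not given, and whether the kinds of file name mark separate collections cannot be told.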
